A study of Mus musculus with 6 samples.

Results

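The genes described are the nuclear genes named as subunits of mitochondrial complex I, the NADH dehydrogenase at the entry of the respiratory chain. They were taken as every probe row whose platform annotation named a single gene with a symbol of the Ndufa, Ndufb, Ndufc, Ndufs, Ndufv or Ndufab series, leaving out assembly factors and pseudogenes. Where several rows named a gene alone, the row with the highest mean was kept. The rule gave 34 genes on 37 rows, out of 22180 genes on the array with a row of their own. Of these, 32 are structural subunits of complex I. Ndufa4 is now counted with cytochrome c oxidase, the last complex of the chain, and Ndufa4l2 is its hypoxia-induced relative. Subunits without a row to themselves were not analysed here.

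Complex I takes electrons from NADH and passes them to ubiquinone, and it pumps protons across the inner mitochondrial membrane as it does so. It is shaped like an L. The matrix arm holds the flavin, the iron-sulphur clusters and the ubiquinone site, and the membrane arm holds the proton pumps. The core subunits do the catalysis. Those of the membrane arm are encoded in mitochondrial DNA and those of the matrix arm in the nucleus, as are all accessory subunits, which are needed for assembly and stability. Neurons depend heavily on this chain for ATP, and inherited loss of complex I subunits causes brain disease such as Leigh syndrome.

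The samples were 6 arrays of total RNA from tissue labelled whole hippocampus of male C57BL/6J mice, an inbred laboratory strain. On 3 arrays the mice had received ethanol as pups, at 2.5 g/kg in 0.15 M NaCl under the skin, and on 3 arrays their sex- and weight-matched littermates had received saline. Each pup was injected 2 times, 2 hours apart, on postnatal day 4 and again on day 7. Each array carried RNA pooled from 3 mice, so the spread between arrays is that between pools. The labels disagree on age at collection, with 21 days in the sample characteristics and 70 days in the treatment protocol. Values are log2 expression as deposited, and a difference is ethanol minus saline on that scale.

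The arrays differed in ways that touch every bright gene. Their medians over all rows lay between 6.55 and 6.66, but the spread over rows was widest on ethanol array 2 (SD 2.03) and narrowest on saline array 2 (SD 1.97). Markers were checked against the labelled tissue. Over 11 genes of cerebellar granule cells the median level was 10.95, with the GABA-A receptor subunit Gabra6 at 12.17, and over 8 genes of Purkinje cells it was 10.34. It was 7.07 over 8 genes of hippocampal CA1 neurons and 6.76 over 10 genes of dentate gyrus granule cells. Array levels of different genes do not rank their transcripts. The bright cerebellar genes go against RNA of hippocampus alone, and the tissue behind the complex I values was not tested further.

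Complex I genes were among the brighter genes of these arrays. Their mean levels over the 6 arrays lay between 6.68 for Ndufs5, a subunit on the intermembrane side of the membrane arm, and 11.75 for Ndufb9, an accessory subunit at the far end of the membrane arm. Of the 34 genes, 17 fell in the brightest decile of all genes and 3 in the next. The median level was 9.19, against 7.10 over all genes.

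In ethanol, 33 of the 34 genes stood higher than in saline, by small amounts, and none passed the test. The median difference was 0.10, with a range from -0.04 to 0.31, against a median of 0.02 over all genes. The largest differences were those of Ndufa7, Ndufa1, Ndufa2 and Ndufc1, all accessory subunits. With limma and Benjamini-Hochberg adjustment over all 41345 rows, 0 of the 34 genes had an adjusted p under 0.05, against a background of 0% of all rows. The smallest adjusted p among them was 0.857. At an unadjusted p under 0.05 in limma there were 4 genes, all higher in ethanol, or 11.8% of the members, against 1.2% of all genes and 1.58% of the brightest decile of genes at that threshold in that direction. Ndufa7, Ndufa1 and Ndufa2 also differed by at least 1.2-fold, where 0.568% of all genes passed both screens as higher. Such a share over genes measured on the same arrays, which move together, is a description and no test.

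A count of genes higher in ethanol has to be read against brightness. Of all genes, 57.2% stood higher in ethanol, but of the genes of the brightest decile 92.8% did, and 85% of the next decile, against 97.1% of the complex I genes. The median difference of all genes was 0.08 in the brightest decile and 0.07 in the next. Set against the median of its own brightness decile, 27 of the 34 genes lay above it, by a median of 0.05 over all 34. The other 14 members lay in deciles 5 to 8, where 42.8% to 75.2% of genes stood higher. Weighting the deciles by the number of members in each gave 81.3% of genes higher.

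**Figure D1:**
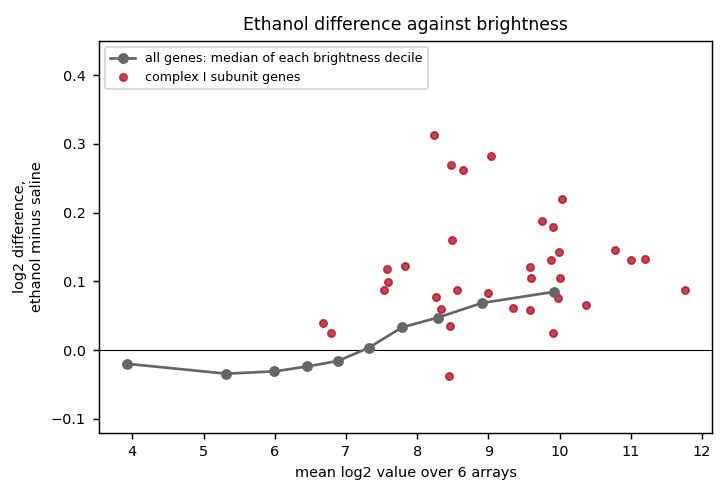
Log2 difference, ethanol minus saline, against mean log2 value over 6 arrays. Each red point is 1 of the 34 complex I subunit genes, and grey points joined by a line are the medians of all genes in each brightness decile. The grey line climbs to 0.08 in the brightest decile, and 27 of the 34 red points lie above the median of their own decile.

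The accessory subunits of the matrix arm held 3 of the 4 genes at an unadjusted p under 0.05. Ndufa7, an accessory subunit of this arm, had values of 8.418, 8.532 and 8.209 on the ethanol arrays, against 8.104, 8.001 and 8.114 on the saline arrays. The lowest ethanol array was above the highest saline array. The means were 8.39 ± 0.16 in ethanol and 8.07 ± 0.06 in saline (SD, n = 3 each), a difference of 0.31 ± 0.10 (SE), or 1.24-fold, with a limma adjusted p of 0.857.

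Ndufa2, a small subunit with a thioredoxin-like fold near the NADH end, stood at 8.66, 8.68 and 8.49 in ethanol, against 8.50, 8.17 and 8.35 in saline. The groups touched, since ethanol array 3 and saline array 1 stood at nearly the same value. The difference was 0.27 ± 0.11 (limma adjusted p = 0.857). Ndufa12, which takes the place of an assembly factor late in the building of the matrix arm, stood at 10.11, 10.26 and 10.07 in ethanol, against 9.84, 9.95 and 9.99 in saline. Here the groups did not overlap, and the difference was 0.22 ± 0.09 (limma adjusted p = 0.857). A dimmer row that also named Ndufa12 alone differed by 0.13 ± 0.11, with overlapping groups.

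Ndufs4, whose loss in mice gives a fatal encephalopathy resembling Leigh syndrome, stood at 9.77, 10.05 and 9.72 in ethanol, against 9.63, 9.57 and 9.77 in saline. Ethanol array 2 stood above the rest and the other arrays of the groups overlapped. The difference was 0.19 ± 0.11 (limma adjusted p = 0.857), and it was 0.04 without ethanol array 2 and saline array 2. The remaining members of this group were Ndufa6, Ndufa9 and Ndufv3, at 0.13, 0.11 and 0.09, and Ndufa5.

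Ndufa5, an accessory subunit next to the ubiquinone-binding module, was the only one of the 34 genes with a lower mean in ethanol. Its values were 8.25, 8.68 and 8.37 in ethanol, against 8.58, 8.26 and 8.57 in saline. Ethanol array 2 was the highest and ethanol array 1 the lowest of all 6, so the groups overlapped fully. The difference was -0.04 ± 0.14 (limma adjusted p = 0.968) with a 95% interval of -0.37 to 0.30. The 8 accessory genes of the matrix arm had a median difference of 0.16, and all but Ndufa5 stood higher in ethanol. After cyclic loess 7 of the 8 stood higher, and 6 did without ethanol array 2 and saline array 2.

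Of the 17 accessory genes of the membrane arm, all stood higher in ethanol, with a median of 0.09. After cyclic loess 13 stood higher, and 12 did without ethanol array 2 and saline array 2. On the deposited values of all arrays, 1 of the 17 had an unadjusted p under 0.05 in limma. That gene was Ndufa1, an X-linked subunit needed for assembly of the complex. Its values were 9.19, 9.30 and 9.04 in ethanol, against 8.92, 8.75 and 9.01 in saline. The groups did not overlap, but ethanol array 3 and saline array 3 were close. Ndufa1 differed by 0.28 ± 0.10, or 1.22-fold (limma adjusted p = 0.857), and lies on chromosome X from 37187588 to 37191238 on mouse build GRCm38.

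Ndufc1, a small subunit of the membrane arm, stood at 8.74, 8.91 and 8.65 in ethanol, against 8.67, 8.31 and 8.54 in saline. Saline array 2 was well below the others, and ethanol array 3 lay just under saline array 1. The difference was 0.26 ± 0.12 (limma adjusted p = 0.857). Ndufb5 stood at 8.57, 8.70 and 8.44 in ethanol, against 8.52, 8.29 and 8.43 in saline, with overlapping groups. It differed by 0.16 ± 0.10 (limma adjusted p = 0.857).

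The brightest and the dimmest of all 34 genes belong to this group, and both had overlapping groups. Ndufb9 stood at 11.75, 11.94 and 11.70 in ethanol, against 11.69, 11.65 and 11.78 in saline, a difference of 0.09 ± 0.09. Ndufs5 stood at 6.85, 6.44 and 6.81 in ethanol, against 6.80, 6.61 and 6.58 in saline, a difference of 0.04 ± 0.13. For Ndufs5 ethanol array 2 was the lowest of the 6 arrays, the only such case among the 34 genes. A brighter row, at a mean of 8.52, named Ndufs5 together with its pseudogene Ndufs5-ps and was not used under the rule. That row differed by 0.26 ± 0.15, and ethanol array 2 was its highest array, at 8.88. The other 12 genes of this group differed by 0.03 to 0.15. Among them, Ndufa13, which is also known as a cell death regulator, stood at 0.06 and Ndufb11, the other X-linked member, at 0.09.

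Rows of 1 gene did not always move alike. A second row naming Ndufa8 alone differed by -0.18 ± 0.13, whereas the brighter row, used here, differed by 0.10 ± 0.10. For Ndufa11 the dimmer row differed by 0.28 ± 0.12 and the brighter row by 0.12 ± 0.09. Ndufab1, the mitochondrial acyl carrier protein that sits in both arms, stood at 7.89, 7.94 and 7.86 in ethanol, against 7.81, 7.70 and 7.81 in saline, with no overlap and a difference of 0.12 ± 0.07 (limma adjusted p = 0.857).

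All 6 measured core genes stood higher in ethanol, with a median difference of 0.10, and none had an unadjusted p under 0.05 in limma. Their median level was 9.91, in the brightest decile, where 92.8% of genes stood higher. After cyclic loess 3 of the 6 stood higher, with a median of 0.03. Without ethanol array 2 and saline array 2, 4 stood higher, with a median of 0.008. Ndufv2, an iron-sulphur subunit at the NADH end, stood at 10.01, 10.10 and 9.87 in ethanol, against 9.86, 9.88 and 9.70 in saline. Only ethanol array 3 reached into the saline range, and the difference was 0.18 ± 0.09 (limma adjusted p = 0.857). Its partner Ndufv1, which binds NADH and the flavin, stood at 9.95, 9.98 and 9.84 in ethanol, against 9.91, 9.82 and 9.97 in saline. The Ndufv1 groups overlapped, and the difference was 0.02 ± 0.08 with a 95% interval of -0.17 to 0.22.

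Ndufs3, a core subunit of the ubiquinone-binding module, stood at 7.603, 7.691 and 7.591 in ethanol, against 7.543, 7.470 and 7.520 in saline. It was the only measured core gene whose groups did not overlap, and it differed by 0.12 ± 0.07 (limma adjusted p = 0.857). Ndufs7, which carries the last iron-sulphur cluster before ubiquinone, stood at 10.078, 10.114 and 9.997 in ethanol, against 10.079, 9.702 and 9.981 in saline. For Ndufs7 the gap between means, 0.14 ± 0.11, came from the low saline array 2, and the difference was 0.01 without ethanol array 2 and saline array 2. Ndufs8, an iron-sulphur subunit, and Ndufs1, the largest core subunit, differed by 0.08 ± 0.09 and 0.06 ± 0.08. Of the Nduf-named genes outside complex I, Ndufa4 differed by 0.13 ± 0.11 and Ndufa4l2 by 0.02 ± 0.10.

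**Figure D2:**
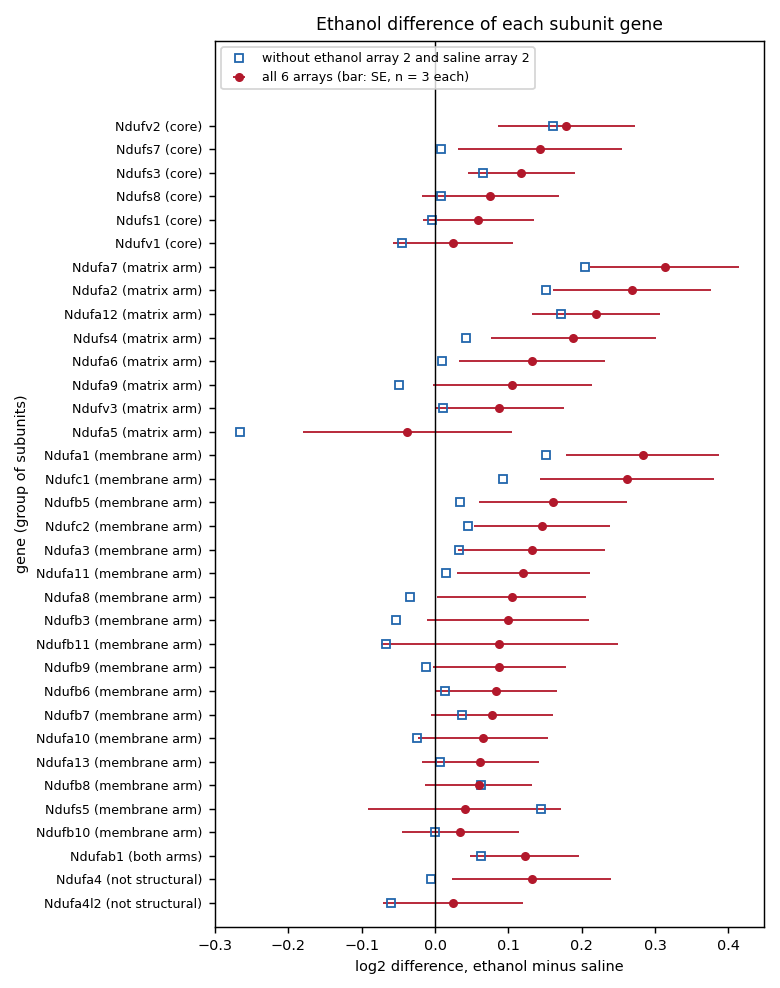
Log2 difference, ethanol minus saline, for each of the 34 genes, ordered within groups of subunits. Red points with bars are differences ± SE on all 6 arrays (n = 3 each), and open blue squares are differences without ethanol array 2 and saline array 2. All red points but that of Ndufa5 lie above 0, whereas 11 blue squares lie below it.

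Groups that did not overlap were seen for 5 genes, Ndufa7, Ndufa1, Ndufa12, Ndufab1 and Ndufs3, all with every ethanol array above every saline array. That is 14.7% of the 34 genes, against 5.74% of all genes and 12.9% of the genes of the brightest decile. No member had every ethanol array below every saline array, against 4.72% of all genes. With 3 arrays against 3, an exact two-sided permutation test of 1 gene cannot go below 0.1.

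The promoters of the 3 genes with an unadjusted p under 0.05, non-overlapping groups and a promoter window are shown with that of Ndufa5, the gene that stood lower. Each is the 250 bases before the start site on the gene's own strand, 5′ to 3′, from RefSeq on mouse build GRCm38.p6. Capitals mark matches to any of 6 motifs searched on both strands, which were the NRF1 motif GCGCANGCG, the ETS motif CCGGAAG bound by GABPA, the GC box GGGCGG, the CCAAT box CCAAT, the YY1 motif ATGGCGGC and the ERR motif TCAAGGTCA. NRF1, GABPA, YY1 and the oestrogen-related receptors are known regulators of nuclear genes for mitochondria. The windows lie at chr17:33824322-33824571 (plus strand) for Ndufa7, chrX:37191239-37191488 (minus strand) for Ndufa1, chr10:94198785-94199034 (plus strand) for Ndufa12 and chr6:24527691-24527940 (minus strand) for Ndufa5.
Ndufa7: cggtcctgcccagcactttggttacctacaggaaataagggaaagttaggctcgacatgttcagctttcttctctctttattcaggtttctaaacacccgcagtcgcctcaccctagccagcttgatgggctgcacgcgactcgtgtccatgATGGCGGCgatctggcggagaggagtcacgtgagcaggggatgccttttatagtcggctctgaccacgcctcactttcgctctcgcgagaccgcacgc
Ndufa1: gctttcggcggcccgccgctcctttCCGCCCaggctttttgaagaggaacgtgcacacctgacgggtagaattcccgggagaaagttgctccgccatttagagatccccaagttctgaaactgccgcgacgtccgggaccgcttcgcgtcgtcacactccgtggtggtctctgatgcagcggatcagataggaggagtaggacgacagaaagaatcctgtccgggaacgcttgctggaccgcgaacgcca
Ndufa12: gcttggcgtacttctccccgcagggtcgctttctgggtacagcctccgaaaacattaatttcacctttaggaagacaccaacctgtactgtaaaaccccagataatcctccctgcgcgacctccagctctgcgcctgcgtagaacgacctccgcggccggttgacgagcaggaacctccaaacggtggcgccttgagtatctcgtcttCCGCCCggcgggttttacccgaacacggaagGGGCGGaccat
Ndufa5: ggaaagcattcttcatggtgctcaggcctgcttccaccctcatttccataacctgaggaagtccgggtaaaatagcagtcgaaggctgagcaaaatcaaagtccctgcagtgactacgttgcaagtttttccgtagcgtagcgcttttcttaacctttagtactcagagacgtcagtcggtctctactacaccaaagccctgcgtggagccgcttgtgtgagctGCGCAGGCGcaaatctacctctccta
The capitals in Ndufa7 are a YY1 match, those in Ndufa1 and Ndufa12 are GC boxes, and those in Ndufa5 are an NRF1 match.

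Over all members, 30 of the 34 genes had a window in the RefSeq table, 32 windows in all because Ndufa5 and Ndufa7 have 2 each. The NRF1 motif stood in 5 of the 32 windows, or 15.6%, against 5.16% of all 32851 windows. The genes were Ndufa5, in both its windows, Ndufa8, Ndufa11 and Ndufs5. The ETS motif stood in 9.38% of member windows, in Ndufb6, Ndufb7 and Ndufs3, against 6.91% of all windows. The GC box stood in 40.6%, against 32.7% of all windows, and the CCAAT box in 21.9%, against 33.8%. The YY1 motif was found in both windows of Ndufa7 and in no other member, and the ERR motif in no member window, against 1.03% and 0.387% of all windows. Member windows were richer in G and C, at a median of 57.6% against 52.4%, and in CG steps, at a median of 15.5 against 6. A match is a description of these letters and shows no binding.

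The members moved together from array to array, and mostly on 1 array of each group. Ethanol array 2 was the highest of the 6 arrays for 29 of the 34 genes, or 85.3%, against 23.1% of all genes and 50.5% of the brightest decile. Saline array 2 was the lowest for 25 genes, or 73.5%, against 29.7% of all genes and 62.3% of the brightest decile. The median of the 34 genes stood 0.06 above, 0.16 above and 0.03 below their own means on ethanol arrays 1 to 3, against 0.02, 0.14 and 0.02 below on saline arrays 1 to 3. Ethanol array 3 thus lay below saline arrays 1 and 3. On ethanol array 2 and saline array 2 the genes of the brightest decile stood at 0.09 and -0.11, in the same directions as complex I.

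**Figure D3:**
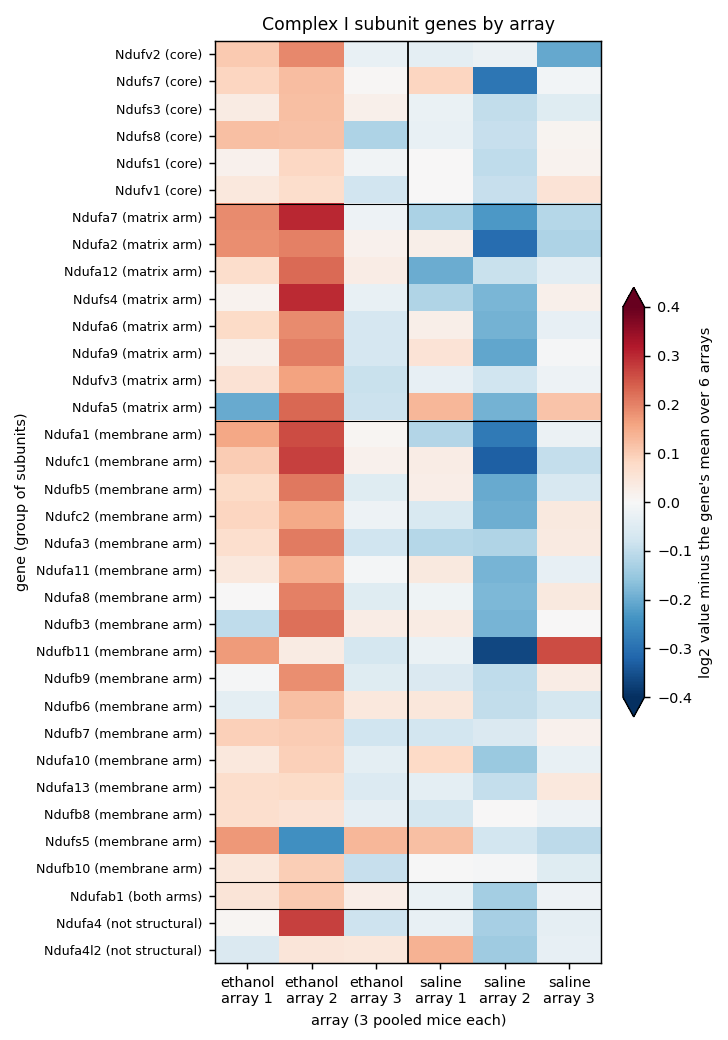
Each cell is the log2 value of a gene (rows, by group of subunits) on an array (columns, ethanol left of saline) minus the mean of that gene over the 6 arrays. The column of ethanol array 2 is the highest for 29 of the 34 genes and that of saline array 2 the lowest for 25, while ethanol array 3 is near or below 0 for most.

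Both arrays were then left out. Since one was the highest of its group and the other the lowest of its group for most of these genes, leaving them out shrinks the difference by construction. With 2 arrays against 2, the median difference of the 34 genes was 0.01 and 23 stood higher in ethanol, or 67.6%, against 51.2% of all genes. In the brightest decile 65.5% of genes then stood higher, with a median of 0.02. Ndufa7 then differed by 0.20, Ndufa12 by 0.17, Ndufa1 and Ndufa2 by 0.15 each, and Ndufa5 by -0.27. After cyclic loess, a scaling that evens out differences between arrays at each brightness, the median difference was 0.05 with 26 higher, against a median of 0.01 and 54.5% higher over all genes. After that scaling the genes of the brightest decile stood at 0.01 on ethanol array 2 and -0.01 on saline array 2, near 0 by construction. The complex I genes still stood at 0.10 and -0.08. This was not particular to complex I. Assembly factors stood at 0.08 and -0.11 there and endothelial cell markers at 0.12 and -0.12. Nuclear subunit genes of complexes II to V stood at 0.04 and -0.02. Complex I genes still stood at 0.04 and -0.04 on ethanol arrays 1 and 3, against -0.03 and -0.01 on saline arrays 1 and 3, so the groups overlapped there too. Within the ethanol group the pools thus differed among themselves by more than the groups did.

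**Figure D4:**
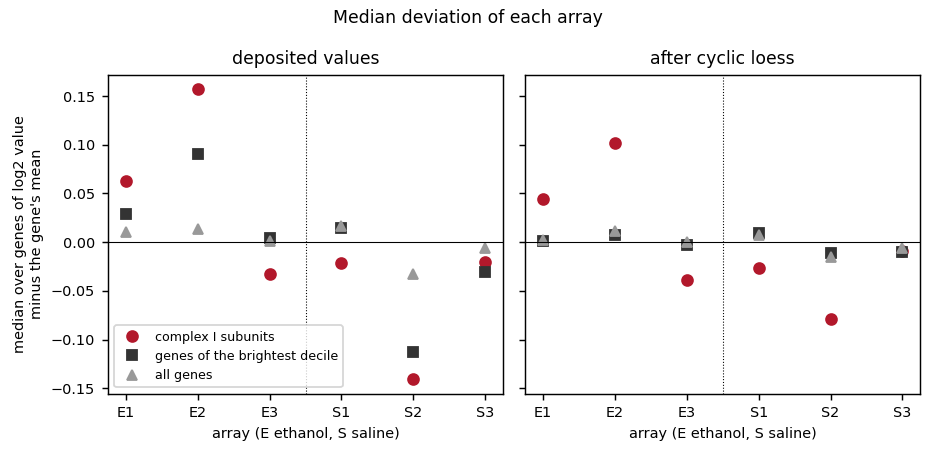
Median over genes of the log2 value minus the mean of each gene over 6 arrays, for each ethanol (E) and saline (S) array, on deposited values (left) and after cyclic loess (right). Complex I genes (red) stand at 0.16 on ethanol array 2 and -0.14 on saline array 2 before scaling and at 0.10 and -0.08 after it. Genes of the brightest decile (black) go to 0.01 and -0.01, near 0 by construction of the scaling.

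The other genes of the pathway were taken from lists. The 7 mitochondrially encoded subunit genes, ND1 to ND6 with ND4L, which form the proton-pumping core of the membrane arm, all stood higher in ethanol by 0.02 to 0.11, with 0 at an unadjusted p under 0.05. Those with the smallest p were ND4L at 0.10 ± 0.07, ND6 at 0.11 ± 0.08 and ND2 at 0.07 ± 0.08. They did not follow the nuclear genes over the arrays, since ethanol array 2 was the highest for 1 of the 7 and saline array 2 the lowest for 0. The same counts were 12 and 14 for the 19 assembly factors and 22 and 25 for the 42 nuclear genes of complexes II to V. The median level of the mitochondrially encoded genes was 13.14, and ND4, at 13.65, was the brightest of all genes. Any limit at the top of the scale was not tested. After cyclic loess the median difference of the 7 genes was -0.05, with 2 of 7 higher, so their direction depends on the scaling. On deposited values without ethanol array 2 and saline array 2, their median was 0.08 with 7 of 7 higher, against 0.04 on all arrays. All of them lay in the brightest decile, where 92.8% of genes stood higher on all arrays.

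Of 19 assembly factors, which put the complex together and leave it, 15 stood higher and 4 lower in ethanol, with a median of 0.07. The 1 at an unadjusted p under 0.05 was Tmem126a, at 0.29 ± 0.11 (limma adjusted p = 0.857), followed by Ndufaf3 at 0.19 ± 0.09 and Ndufaf1 at 0.19 ± 0.10. Of 14 regulators of mitochondrial biogenesis, 11 stood higher with a median of 0.05, and 0 had an unadjusted p under 0.05 in limma. Those with the smallest p were Gabpa at 0.17 ± 0.10, Gabpb2 at 0.11 ± 0.07 and Tfam, the packaging and transcription factor of mitochondrial DNA, at 0.17 ± 0.13. The coactivator Ppargc1a stood at -0.05 ± 0.09. Over 42 nuclear subunit genes of complexes II to V the median was 0.11 with 36 higher, and Cox5b, Cox7a1 and Uqcrq had the smallest p, at 0.22 ± 0.07, 0.20 ± 0.07 and 0.29 ± 0.11. In that list 3 genes, or 7.14%, had an unadjusted p under 0.05 in limma, all higher in ethanol, against 1.2% of all genes. Every ethanol array lay above every saline array for 12 of the 42, or 28.6%. That share was 14.7% for complex I, 5.74% for all genes and 12.9% for the brightest decile. The median level of complexes II to V was 9.72, in the brightest decile, where 92.8% of genes stood higher. Assembly factors and regulators had median levels of 7.95 and 7.92, in decile 7, where 64.3% of genes stood higher. After cyclic loess 26 of 42 genes of complexes II to V stood higher (median 0.03), 13 of 19 assembly factors (0.05) and 9 of 14 regulators (0.03). Without ethanol array 2 and saline array 2 these counts were 28 of 42 (median 0.04), 7 of 19 (-0.015) and 9 of 14 (0.03). Complex I was not tested against these lists.

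The tissue was measured in bulk, so a change in the number of cells of a type and a change in RNA per cell cannot be told apart. Astrocyte markers stood higher in ethanol as well, 10 of 10 of them, with a median difference of 0.10, and their list median lay between 9.91 and 10.19 on the ethanol arrays and between 9.84 and 10.07 on the saline arrays. Cerebellar granule cell markers stood higher for 10 of 11. Their list medians lay at 10.97 to 11.10 on the ethanol arrays and 10.76 to 10.93 on the saline arrays, without overlap. Gene by gene, 3 of the 11 had every ethanol array above every saline array, against 5.74% of all genes and 12.9% of the brightest decile. Purkinje cell markers stood higher for 5 of 8, with list medians of 10.29 to 10.47 in ethanol and 10.22 to 10.44 in saline. Endothelial markers stood higher for 9 of 10, with list medians of 7.922 to 8.038 on the ethanol arrays and 7.796 to 8.005 on the saline arrays. CA1 and dentate markers of the labelled tissue leaned the other way, whereas 6 of 10 CA3 and CA2 markers stood higher. CA1 markers stood lower for 5 of 8. Their list medians lay at 6.98 to 7.03 on the ethanol arrays and 7.11 to 7.17 on the saline arrays, without overlap. Gene by gene, 1 of the 8 had every ethanol array below every saline array, against 4.72% of all genes. The dimmest of the 8, Lefty1, had a mean level of 6.04. Dentate granule cell markers stood lower for 6 of 10 and those of telencephalic pyramidal neurons for 6 of 8. Counts of markers also have to be read against brightness. The CA1, dentate and telencephalic lists had median levels of 7.07, 6.76 and 6.86, in decile 5, where 42.8% of all genes stood higher. Astrocyte, granule cell and Purkinje cell lists, at 9.99, 10.95 and 10.34, lay in the brightest decile, where 92.8% did. The endothelial list, at 7.97, lay in decile 7, where 64.3% did. Of the remaining lists, 6 of 8 choroid plexus markers, 5 of 9 microglial markers and 7 of 9 oligodendrocyte markers stood higher. After cyclic loess these counts were 5 of 8, 4 of 9 and 1 of 9, and 5 of 10 CA3 and CA2 markers stood higher. With that scaling 8 of 10 astrocyte, 6 of 11 granule cell, 3 of 8 Purkinje cell and 9 of 10 endothelial markers stood higher. The same held for 2 of 8 CA1, 4 of 10 dentate and 3 of 8 telencephalic markers, against 54.5% of all genes. Of the astrocyte, cerebellar granule and Purkinje cell markers none was at the bottom of the scale, the lowest being at 7.19. Their part in the complex I differences was not tested.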

How the data were processed

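Total RNA of 6 pools was hybridized to Affymetrix whole-transcript arrays, 200 ng each, per the labels' protocols. The deposited values are log2 expression per probe row, summarized by the authors; the log2 scale was read from their range, and the background correction, summarization and normalization are not given in the sources used here. The submitters' processing notes name build mm 10. By the platform annotation, 23521 rows carried 1 gene name, 1814 several and 16010 were unnamed here. All 34 members matched a RefSeq table of GRCm38 by Entrez identifier, and the platform's names for mitochondrial genes were used as given.

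The whole table of 41345 rows was fitted in R 4.3.3 by limma 3.58.1 (functions lmFit and eBayes), two-sided and without covariates or filters, with Benjamini-Hochberg adjustment over all rows at a threshold of 0.05. SEs and 95% intervals come from that fit, with 4 residual and 2.94 prior degrees of freedom. The number of arrays limits the precision. The fit was also run on simulated data with independent noise for each row. Such data hold no shifts shared by the genes of an array, so they cannot show how the fit deals with those. For lists and backgrounds each gene was represented by its brightest row, and genes were split into 10 deciles by mean level. The members and lists were chosen with earlier results of these data known. Values per array were given for the genes with the 8 largest differences, an unadjusted p under 0.05 or a lower mean in ethanol, the brightest and the dimmest, and the core genes, some of these by their difference only; Ndufab1 was added for its groups. Up to 3 genes of each other list were named by smallest p, and Ppargc1a, the X-linked and Nduf-named genes and Ndufa13 after their values were seen. Alternatives covered the scaling, the limma prior, array weights, filters, the replicate number as a block, the row per gene and leaving out arrays.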

Additional observations from a re-analysis of the deposited data

How the results depend on the processing

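With limma, 0 of the complex I genes were called on all arrays and under each of the 18 alternatives. The count at an unadjusted p under 0.05, which was 4, became 2 with quantile normalization (Ndufa1 and Ndufa7) and 1 with the replicate number as a block (Ndufa7). It was 1 without ethanol array 2 and saline array 2, but none of the 4 genes: the 1 was Ndufa5, lower in ethanol at -0.27. Leaving out 1 array gave 0 to 4, with 0 without ethanol array 1, ethanol array 2 or saline array 2; fewer arrays widen the errors by construction. Genes whose groups did not overlap numbered 5, and 8 with median centring, which raises all genes by about 0.04; leaving out 1 array gave 5 to 21, the highest without ethanol array 3, and 11 without saline array 1 and 9 without saline array 3, where fewer arrays overlap less by construction. The median difference of 0.10 lay between 0.05 and 0.15 when 1 array was left out, at 0.05 without ethanol array 2 and 0.06 without saline array 2, and was 0.012 without both. It was 0.06 with quantile normalization and 0.05 after cyclic loess, and the count of genes higher, which was 33, was 28 and 26 there and 34 with median centring, where 70.5% of all genes stood higher. The cause was not tested for the scalings. The labels do not say that the replicate numbers pair the samples. Deviations of same-numbered arrays from their group means correlated at 0.10, -0.06 and 0.04, and those of unlike-numbered arrays at -0.13 to 0.10. With 3 arrays in each group, such correlations cannot decide whether samples were paired.

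Several genes changed sign. Of all 34, 5 did so with quantile normalization, 7 after cyclic loess and 10 without ethanol array 2 and saline array 2. Ndufs1 stood at -0.0074 and Ndufv1 at -0.044 with quantile normalization. After cyclic loess Ndufb9 stood at -0.00095, Ndufs1 at -0.015, Ndufs8 at -0.0034 and Ndufv1 at -0.054. Ndufa5 stood at 0.0011 with median centring. Without ethanol array 2 and saline array 2, Ndufb9 stood at -0.012, Ndufs1 at -0.0049 and Ndufv1 at -0.046; of the genes given by their difference only, Ndufa9 stood at -0.05, Ndufb11 at -0.07, Ndufa8 at -0.03, Ndufa4 at -0.0063 and Ndufa4l2 at -0.06. Ndufa13 stood at -0.00082 with quantile normalization and -0.0086 after cyclic loess. Leaving out 1 array gave -0.16 to 0.053 for Ndufa5, -0.036 to 0.17 for Ndufs5 and -0.016 to 0.068 for Ndufv1. Ndufa7, Ndufa1, Ndufa2, Ndufa12, Ndufc1, Ndufs4, Ndufb5, Ndufv2, Ndufs3 and Ndufs7 stayed higher in ethanol under each of the 17 alternatives run for them, and the smallest adjusted p among them was 0.464, for Ndufa2. The cause was not tested.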
